A study of Mus musculus with 12 samples.

Results

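Expression of 9 genes that mark GABAergic interneurons was followed through 12 RNA-seq libraries of hippocampus from mouse pups. The genes were Gad1, Gad2, Slc32a1, Dlx1, Dlx2, Dlx5, Dlx6, Lhx6 and Sp9, taken by symbol from a table of 29454 genes, and all 9 were among the 16503 genes that passed the filter on low values (1 FPKM or more in 3 or more libraries). FPKM counts fragments for each kilobase of a transcript and is scaled by library size. The study concerns signalling by the intracellular C-terminal part of CX3CL1, a chemokine held in the membrane of neurons. WT pups (3 libraries) carried no transgene, CAMK pups (3 libraries) carried CaMKIIα-tTA, a transactivator under a promoter active mainly in excitatory forebrain neurons, and CX3CL1-ct pups (6 libraries) carried both CaMKIIα-tTA and Tg-CX3CL1-ct. The driver alone is therefore the closest control for the transgene. Pups of the 3 groups were littermates with the strain label C57/BL6, and the Tg-CX3CL1-ct line had been backcrossed to C57BL/6J for 6 generations. Their age is postnatal day 4 in the sample labels but postnatal day 0 in the design text of the series. Sex, litter and batch are not labelled, and nothing says that each library came from its own animal, so the p-values below measure the spread between these samples, which may be technical.

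GABA is the main inhibitory transmitter of the forebrain. The glutamate decarboxylases encoded by Gad1 and Gad2 make it, and the transporter encoded by Slc32a1 loads it into synaptic vesicles. Interneurons of the hippocampus are born in the ganglionic eminences of the ventral forebrain, where the homeodomain factors of the Dlx family, acting in part as neighbouring pairs of genes, and the zinc finger factor Sp9 direct their development. Lhx6, a LIM homeodomain factor, is kept by interneurons from the medial eminence, among them those that make somatostatin or parvalbumin. The projection neurons of the striatum, which are born in the lateral eminence, are also GABAergic and use the same decarboxylases and transporter and several of the same factors, but they do not keep Lhx6.

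Of the 9 genes, 7 lie on chromosome 2 and 2 on chromosome 6 (build mm10, GENCODE M21). Dlx1 (chr2:71528113-71533981, plus strand) and Dlx2 (chr2:71543408-71546754, minus strand) face each other across 9426 bases. Dlx6 (chr6:6863334-6868568, plus strand) and Dlx5 (chr6:6877805-6882085, minus strand) do so across 9236 bases. Gad1 lies at chr2:70553072-70602014, Gad2 at chr2:22622205-22693874, Slc32a1 at chr2:158610767-158615748 and Sp9 at chr2:73271925-73284706, all on the plus strand, and Lhx6 at chr2:36081953-36105408 on the minus strand. An exon of Dlx1 shares 335 nt with the antisense RNA Dlx1as, and an exon of Dlx6 shares 73 nt with Dlx6os2. Exons of Sp9 and Cir1 on the opposite strand share 270 nt, those of Slc32a1 and Gm14205 share 697 nt, and Lhx6 shares 104 nt with Gm27953 on its own strand. Whether counting used the strand is not given in the sources used here, so values may hold reads of an opposite-strand partner. Counting by strand would not separate Lhx6 from Gm27953, which stood at 0 to 11.6 FPKM. Gm14205 did not exceed 0.181 FPKM, while Dlx1as stood at 0.720 to 4.75, Dlx6os2 at 0.795 to 3.29 and Cir1 at 1.41 to 2.30. Near-identical copies were not found among the members: the longest run of bases shared by any pair of coding sequences was 23 nt, a repeat in Dlx2 and Dlx6, against reads of 100 cycles.

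RefSeq promoter entries (GRCm38.p6) matched 7 of the 9 genes, those other than Dlx5 and Dlx6. The windows run from 250 bases before the start to 50 after it. They were searched on both strands for the homeodomain core TAATTA, its variant TAATTG, the E-box CACGTG, another E-box written CAGCTG, the TATA-like letters TATAAA, and the cyclic AMP response element TGACGTCA. The 250 bases before the start are shown for Dlx2, Sp9 and Lhx6. In CX3CL1-ct 1 to 3, described below, Dlx2 was highest and Lhx6 lowest, and Sp9 was high in these and in other libraries. No window is shown for the genes that were highest in WT 2, WT 3 and CX3CL1-ct 5. The matches to CACGTG in Dlx2 (chr2:71546755-71547004, minus strand) and to TAATTG in Sp9 (chr2:73271676-73271925, plus strand) and Lhx6 (chr2:36104061-36104310, minus strand) are in capitals. Lhx6 had more than 1 entry, and the window shown lies inside the gene as placed above. The entry at the start of Lhx6 held no TAATTG.
Dlx2: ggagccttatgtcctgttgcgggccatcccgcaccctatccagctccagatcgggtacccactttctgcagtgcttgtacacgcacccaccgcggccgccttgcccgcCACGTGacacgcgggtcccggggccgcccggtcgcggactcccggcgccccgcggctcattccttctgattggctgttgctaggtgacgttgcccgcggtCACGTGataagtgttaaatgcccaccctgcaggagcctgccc
Sp9: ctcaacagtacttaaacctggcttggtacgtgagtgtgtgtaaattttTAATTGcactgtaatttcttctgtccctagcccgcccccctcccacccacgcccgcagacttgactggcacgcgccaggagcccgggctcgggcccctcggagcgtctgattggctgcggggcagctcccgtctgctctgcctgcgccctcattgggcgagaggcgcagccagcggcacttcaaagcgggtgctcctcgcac
Lhx6: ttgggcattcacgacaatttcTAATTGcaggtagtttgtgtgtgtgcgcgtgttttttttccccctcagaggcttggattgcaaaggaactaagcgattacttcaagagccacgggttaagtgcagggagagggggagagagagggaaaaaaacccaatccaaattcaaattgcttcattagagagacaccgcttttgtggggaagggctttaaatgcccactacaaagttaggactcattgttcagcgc
Over 32851 promoter windows, 7.15% held CACGTG and 8.0% held TAATTG. The E-box CAGCTG, present at 2 places in another Lhx6 entry, was held by 16.3%, and TATAAA, present in Gad1 and Lhx6, by 13.6%. TAATTA (5.29%) and TGACGTCA (1.79%) did not occur in the members' windows, and none of the 6 motifs occurred in those of Gad2, Slc32a1 and Dlx1. These matches describe the letters in the windows and are not binding sites.

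Depth was estimated at about 11500000 to 16300000 fragments per library from the value of 1 fragment in short genes, and 15318 to 15861 genes per library reached 1 FPKM. Some libraries stood apart from their groups. WT 2, WT 3 and CX3CL1-ct 5 had higher levels of genes of striatal projection neurons: the summed FPKM of a list of 21 such genes was 547, 417 and 418 in these 3 and 148 to 214 in the other 9. None of the list's defining markers was at 0 in any library. Drd1, a dopamine receptor, stood at 17.5, 13.1 and 11.4 FPKM in the 3 libraries and at 2.20 to 5.32 in the others, and Ppp1r1b, which encodes the dopamine-regulated phosphatase inhibitor of these neurons, stood at 43.7, 29.3 and 27.9 against 3.31 to 7.84. Slc17a7, the vesicular glutamate transporter of hippocampal and cortical excitatory neurons, was lowest in CX3CL1-ct 5, at 17.4 FPKM, against 49.9 to 134 elsewhere. CX3CL1-ct 1, 2 and 3 resembled each other: the median absolute log2 difference between them over 10366 genes was 0.0640 to 0.0822, against 0.0948 to 0.226 for the 63 other pairs of libraries. Their squared differences were 1.38 to 2.09 times the counting error expected from the estimated depth. For the other pairs this was 1.94 to 12.9, lowest for WT 2 with WT 3. That does not show whether CX3CL1-ct 1, 2 and 3 came from separate animals. They were counted as 3 samples because the labels list them so, and results that rest on them are also given without them.

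None of the 9 genes differed between groups past an adjusted p of 0.05 in any of the 3 comparisons. Their levels nevertheless varied widely among libraries, by a ratio of highest to lowest from 1.76 for Lhx6 to 4.78 for Gad2, and the variation followed sets of libraries other than the labelled groups: 1 set drawn from both WT and CX3CL1-ct, and 1 made of 3 of the 6 CX3CL1-ct libraries. The GABA synthesis and transport genes and Dlx6 were highest in WT 2, WT 3 and CX3CL1-ct 5. Dlx1 and Dlx2 were highest in CX3CL1-ct 1, 2 and 3, where Lhx6 was lowest. In whole tissue, fewer cells of a type and less RNA per cell cannot be told apart.

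**Figure D1:**
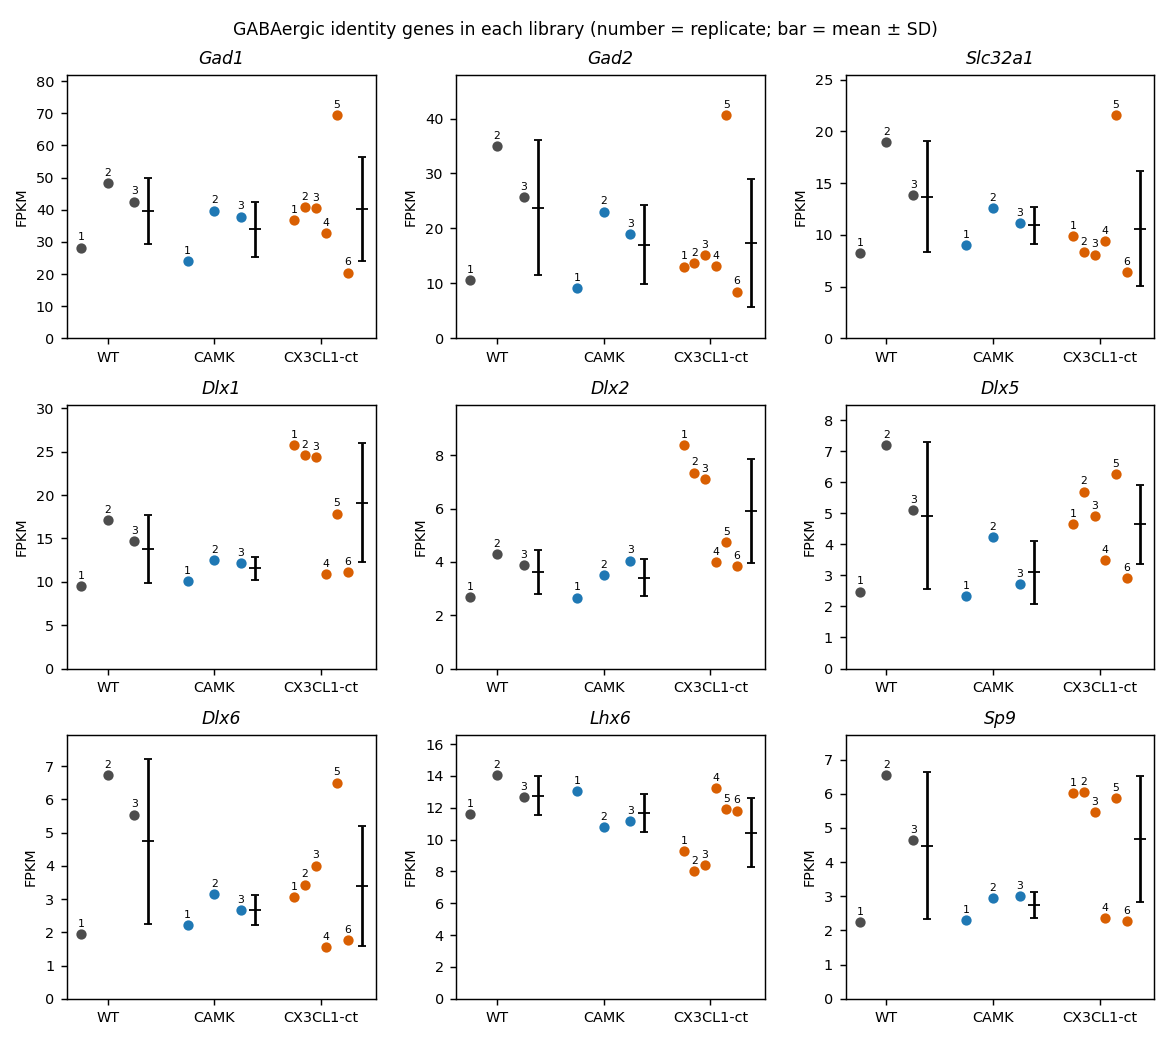
FPKM (y axis, from 0) of each of the 9 genes in each library (points, numbered by replicate) of the 3 groups (x axis), the bars giving mean ± SD. Gad2 reaches 40.7 in CX3CL1-ct 5, while Dlx1 sits at 24.4 to 25.8 in CX3CL1-ct 1 to 3 and at 9.55 to 17.9 in the other libraries.

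Gad1, the decarboxylase that makes most of the brain's GABA, was the most abundant of the 9 genes per length. It stood at 28.2, 48.3 and 42.5 FPKM in WT 1 to 3 and at 24.03, 39.7 and 37.9 in CAMK 1 to 3. In CX3CL1-ct it ranged from 20.4 (replicate 6) through a median of 38.6 to 69.5 (replicate 5). The groups overlapped fully, with means of 39.7 ± 10.3 (SD, n = 3), 33.9 ± 8.56 (n = 3) and 40.1 ± 16.2 (n = 6) in WT, CAMK and CX3CL1-ct. The log2 difference was 0.18 for CX3CL1-ct against CAMK (limma, SE 0.30, 95% interval -0.48 to 0.84, adjusted p = 0.960) and -0.04 for CX3CL1-ct against WT (adjusted p = 0.970).

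Gad2, the decarboxylase found mostly at nerve endings, varied most among the 9 genes. Its FPKM was 10.6, 35.0 and 25.7 in WT 1 to 3 and 9.10, 23.1 and 19.0 in CAMK 1 to 3. The CX3CL1-ct libraries ran from 8.51 (replicate 6) through a median of 13.4 to 40.7 (replicate 5), and the next highest of them held 15.2. Replicate 1 was thus the lowest of both WT and CAMK, and CX3CL1-ct 5 stood above every other library. The log2 difference was -0.46 for CX3CL1-ct against WT (limma, SE 0.45, adjusted p = 0.716) and -0.06 for CX3CL1-ct against CAMK (adjusted p = 0.992). Without WT 2, WT 3 and CX3CL1-ct 5 the first of these was 0.22, with WT represented by 1 library. Leaving out 1 library at a time, it ran from -0.93 (without WT 1) to -0.11 (without WT 2).

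Slc32a1, the vesicular GABA transporter, followed the same libraries. It stood at 8.23, 18.9 and 13.9 FPKM in WT, at 9.05, 12.6 and 11.2 in CAMK, and from 6.43 through a median of 8.84 to 21.6 in CX3CL1-ct. The highest value was again CX3CL1-ct 5, and the next highest of that group was 9.90. The groups overlapped, and the log2 difference was -0.37 for CX3CL1-ct against WT (limma, SE 0.31, adjusted p = 0.653) and -0.13 for CX3CL1-ct against CAMK (adjusted p = 0.972). The ratio of Slc32a1 to Gad1, both per length, ran from 0.201 in CX3CL1-ct 3 to 0.392 in WT 2.

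The 2 decarboxylase genes did not vary in a fixed proportion. The ratio of Gad2 to Gad1 was 0.725 in WT 2, 0.604 in WT 3 and 0.585 in CX3CL1-ct 5, and 0.581 and 0.503 in CAMK 2 and 3. In the other 7 libraries it lay between 0.335 and 0.416. The libraries with a high ratio included the 3 high in striatal genes and 2 that were not among them. For 2 genes chosen after their values were seen, CAMK 2 and 3 lay with those 3 libraries. Isl1, a factor of striatal and cholinergic neurons, stood at 6.22 and 4.74 FPKM in CAMK 2 and 3, against 10.9, 7.59 and 10.6 in WT 2, WT 3 and CX3CL1-ct 5, and 0.404 to 0.853 in the other 7. Lhx8, a factor of cholinergic neurons of the basal forebrain, stood at 2.89 and 2.17 in CAMK 2 and 3, at 6.20, 3.75 and 6.49 in the 3 libraries, and at no more than 0.156 in the rest. Isl1 is itself on the striatal list, whose genes differed in where they placed CAMK 2 and 3. The list's summed FPKM was 193 in each, far below those 3 libraries, and Drd1 stood at 4.63 and 4.44. Foxp2, another gene of the list singled out after its values were seen, stood at 16.8 and 12.2 in CAMK 2 and 3. It stood at 15.5 to 28.5 in the 3 libraries and at 1.42 to 7.38 in the other 7. By the list's mean log2 level, CAMK 2 and 3 came next after the 3 libraries, at 2.73 and 2.68. The part of cells from neighbouring regions in the level of Gad2 was not tested beyond the alternatives given here.

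Dlx1 and Dlx2, a pair of neighbouring homeobox genes needed for the migration and maturation of interneurons, moved together. Dlx1 stood at 9.55, 17.1 and 14.7 FPKM in WT 1 to 3, at 10.1, 12.5 and 12.1 in CAMK 1 to 3, and at 25.8, 24.6, 24.4, 10.8, 17.9 and 11.1 in CX3CL1-ct 1 to 6. Dlx2, at a lower level per length, stood at 2.68, 4.30 and 3.87 in WT, at 2.66, 3.50 and 4.05 in CAMK, and at 8.39, 7.35, 7.11, 3.99, 4.75 and 3.83 in CX3CL1-ct. For both genes CX3CL1-ct 1, 2 and 3 lay above the other 9 libraries, while CX3CL1-ct 4 and 6 lay within the range of the controls. The ratio of Dlx2 to Dlx1 stayed between 0.251 and 0.367 in all 12 libraries. Dlx1as, which shares exon bases with Dlx1 and was named after its values were seen, stood at 3.01 to 4.75 in CX3CL1-ct 1 to 3. It stood at 0.720 to 2.35 in the other 9 libraries, and its part in the values of Dlx1 was not tested.

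The log2 difference of Dlx2 between CX3CL1-ct and CAMK was 0.61 (limma, SE 0.22, 95% interval 0.12 to 1.10) and that between CX3CL1-ct and WT was 0.55 (SE 0.22). The adjusted p over all genes was 0.725 and 0.356, so neither was called. For Dlx1 the differences were 0.60 (limma, SE 0.28, 95% interval -0.02 to 1.22, adjusted p = 0.775) and 0.40 (adjusted p = 0.594). These values rest on CX3CL1-ct 1, 2 and 3. Without the 3 libraries the difference from CAMK was 0.24 for Dlx2 and 0.16 for Dlx1, and the difference from WT was 0.18 and -0.05.

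Dlx5 and Dlx6, the other pair of the family, act downstream of Dlx1 and Dlx2 in interneuron development. Dlx5 stood at 2.48, 7.20 and 5.10 FPKM in WT, at 2.33, 4.24 and 2.72 in CAMK, and at 4.65, 5.69, 4.90, 3.50, 6.26 and 2.91 in CX3CL1-ct 1 to 6. Dlx6 stood at 1.95, 6.73 and 5.54 in WT, at 2.22, 3.14 and 2.67 in CAMK, and at 3.07, 3.43, 4.004, 1.56, 6.504 and 1.76 in CX3CL1-ct 1 to 6. Dlx6 was highest in the 3 libraries high in striatal genes. Dlx5 was high there too, but CX3CL1-ct 2 was above WT 3. All groups overlapped for both genes.

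The log2 difference of Dlx5 was 0.46 for CX3CL1-ct against CAMK (limma, SE 0.27, adjusted p = 0.808), -0.01 for CX3CL1-ct against WT (adjusted p = 0.987) and -0.47 for CAMK against WT (adjusted p = 0.579). For Dlx6 these were 0.17 (limma, adjusted p = 0.966), -0.37 (adjusted p = 0.696) and -0.54 (SE 0.40, adjusted p = 0.653). The ratio of Dlx6 to Dlx5 ran from 0.444 in CX3CL1-ct 4 to 1.09 in WT 3. Dlx6 was the member with the fewest fragments, an estimated 48.0 in its lowest library, which gives a counting error of up to 14.4% of its value. Dlx6os1, the long noncoding RNA transcribed across Dlx6 from the opposite strand and named after its values were seen, was highest in CX3CL1-ct 1 to 3, at 32.7 to 36.3 FPKM, against 9.26 to 29.0 in the others.

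Sp9, a zinc finger factor of the ganglionic eminences, was high in both sets of libraries. It stood at 2.25, 6.54 and 4.64 FPKM in WT, at 2.31, 2.94 and 3.01 in CAMK, and at 6.01, 6.05, 5.47, 2.37, 5.87 and 2.27 in CX3CL1-ct 1 to 6. WT 2, WT 3 and CX3CL1-ct 1, 2, 3 and 5 were all above 4.6, and the other 6 libraries were at or below 3.01. The log2 difference was 0.53 for CX3CL1-ct against CAMK (limma, SE 0.31, adjusted p = 0.822), 0.06 for CX3CL1-ct against WT (adjusted p = 0.958) and -0.47 for CAMK against WT (adjusted p = 0.664). Without CX3CL1-ct 1 to 3 the first was 0.18.

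Lhx6, the factor of interneurons from the medial eminence, varied least and in the other direction. It stood at 11.6, 14.0 and 12.6 FPKM in WT, at 13.0, 10.8 and 11.2 in CAMK, and at 9.28, 7.995, 8.37, 13.2, 11.9 and 11.8 in CX3CL1-ct 1 to 6. CX3CL1-ct 1, 2 and 3 were below the other 9 libraries, and CX3CL1-ct 4 to 6 lay among the controls. The means were 12.8 ± 1.22 (SD, n = 3), 11.7 ± 1.199 (n = 3) and 10.4 ± 2.16 (n = 6) in WT, CAMK and CX3CL1-ct. The log2 difference was -0.29 for CX3CL1-ct against WT (limma, 95% interval -0.60 to 0.03, adjusted p = 0.450) and -0.17 for CX3CL1-ct against CAMK (adjusted p = 0.896). Without CX3CL1-ct 1 to 3 these were -0.05 and 0.07.

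Set against each other per length, Dlx1 and Lhx6 therefore separated CX3CL1-ct 1 to 3 from the rest. The ratio of Dlx1 to Lhx6 was 2.78, 3.07 and 2.91 in these 3 libraries and 0.771 to 1.501 in the other 9. The ratio of Sp9 to Lhx6 was 0.648 to 0.757 in the 3 and 0.177 to 0.493 in the others. The ratios were chosen after the values were seen and carry no test.

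**Figure D2:**
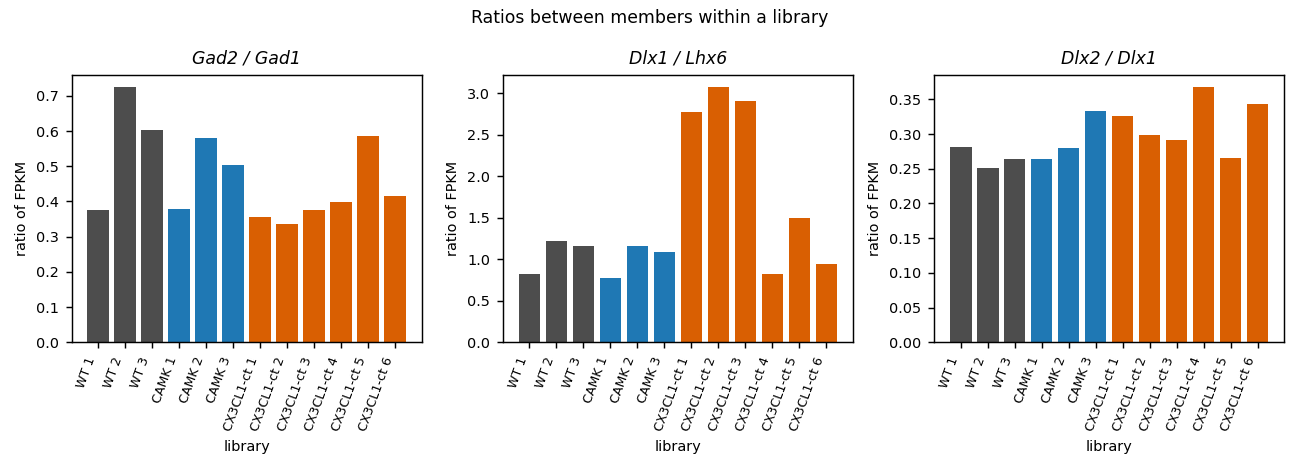
Ratios of FPKM (y axis, from 0) of Gad2 to Gad1, Dlx1 to Lhx6 and Dlx2 to Dlx1 in each library (bars; x axis, coloured by group). The ratio of Dlx1 to Lhx6 is 2.78 to 3.07 in CX3CL1-ct 1 to 3 and at most 1.501 elsewhere, while that of Dlx2 to Dlx1 stays between 0.251 and 0.367.

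CX3CL1-ct against CAMK asks what the transgene changes in pups that carry the driver. Here 0 of the 9 genes were called by limma, while 10 of 16503 genes (0.0606%) were called over the whole table. Groups that did not overlap occurred for 0 of the 9, against 2.78% of all genes with CX3CL1-ct higher and 0.527% with it lower. At an unadjusted p under 0.05 there was 1 member, Dlx2, against 6.37% of all genes. The members' log2 differences had a median of 0.18, and 6 of 9 were positive, beside a median of 0.04 for all genes.

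CX3CL1-ct against WT combines the driver and the transgene. None of the 9 genes was called, and 75 genes (0.454%) were called in all. No member's groups were apart, against 4.67% of all genes higher and 1.38% lower in CX3CL1-ct. Dlx2 was again the 1 member with an unadjusted p under 0.05, beside 12.3% of all genes. The median difference of the members was -0.04, and 3 of 9 were positive, beside 0.04 for all genes.

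CAMK against WT tests the driver alone. Again 0 of the 9 genes were called, against 59 of all genes (0.358%). With the replicate number as a block, 490 genes were called over the table and still 0 of the 9. No member's groups were apart, against 9.22% of all genes higher and 8.8% lower in CAMK, and none had an unadjusted p under 0.05, against 12.4% of all genes. Every member's difference was below 0, with a median of -0.24 beside 0.00 for all genes. All 9 of these differences were above 0 when WT 2, WT 3 and CX3CL1-ct 5 were left out together. They then ranged from 0.0025 for Lhx6 to 0.55 for Gad2. The 1 WT library left, WT 1, was among the 3 lowest libraries for every member but Lhx6. The signs thus follow in part from the choice of libraries. These comparisons share libraries: CX3CL1-ct enters 2 of the 3, as do CAMK and WT.

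**Figure D3:**
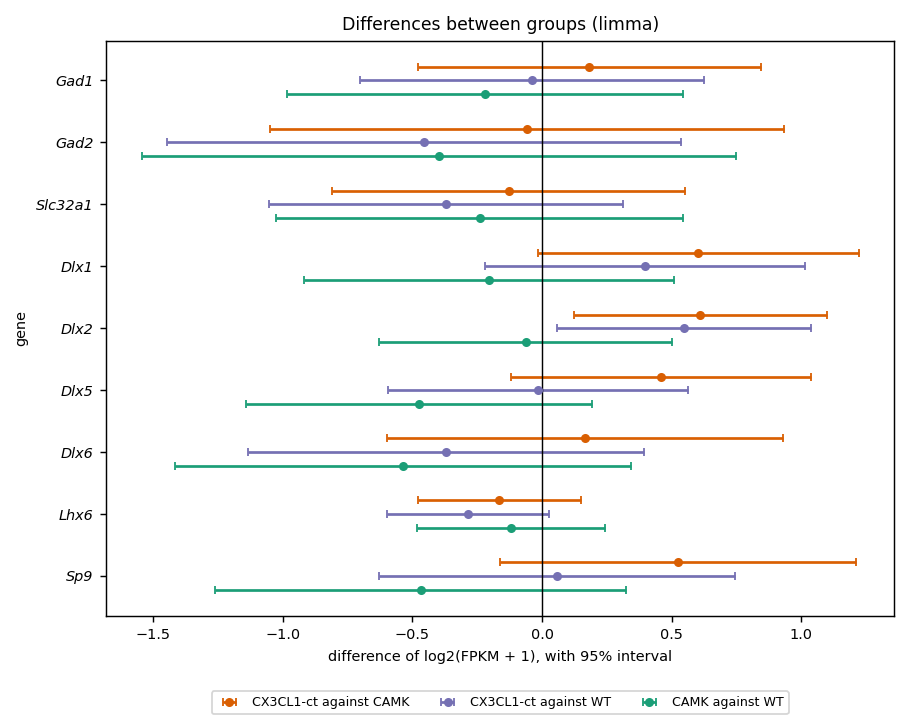
Difference of log2(FPKM + 1) between groups (x axis) for each of the 9 genes (y axis), with points at the limma estimate and bars for its 95% interval, coloured by comparison. Only the intervals of Dlx2 in both CX3CL1-ct comparisons lie wholly above 0, and these do not allow for the number of genes tested.

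Of 16503 genes, 833 (5.05%) had their 3 highest values in WT 2, WT 3 and CX3CL1-ct 5, and 4 of the 9 members did: Gad1, Gad2, Slc32a1 and Dlx6. The 3 highest values were in CX3CL1-ct 1 to 3 for 411 genes (2.49%) and for 2 members, Dlx1 and Dlx2. The 3 lowest were there for 218 genes (1.32%) and for 1 member, Lhx6. Dlx5 and Sp9 had their highest values in a mixture of both sets. The sets of libraries were chosen after the values were seen, and these counts describe them.

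**Figure D4:**
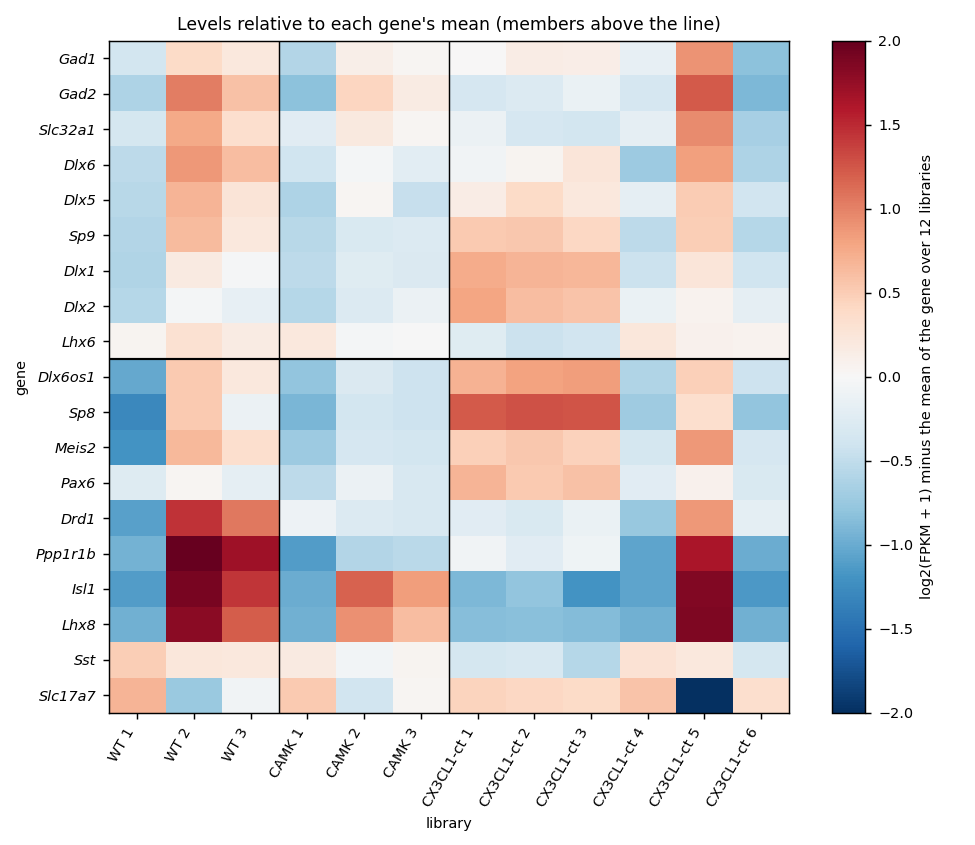
log2(FPKM + 1) minus the gene's mean over the 12 libraries (colour, which stops at 2 in either direction) for the 9 members (above the line) and 10 other genes (below it) in each library (x axis). Gad2, Drd1 and Ppp1r1b are highest in WT 2, WT 3 and CX3CL1-ct 5, and Dlx1, Dlx2 and Sp8 in CX3CL1-ct 1 to 3.

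The mean log2 level of the striatal list was 4.10, 3.72 and 3.76 in WT 2, WT 3 and CX3CL1-ct 5 and 2.10 to 2.73 in the others. Gad2 was above 25 FPKM in those 3 libraries, and CAMK 2 and 3, the next by this mean, held its next highest values. By summed FPKM of the list, CX3CL1-ct 1 to 3 (207 to 214) came before CAMK 2 and 3 (193 in each). Gad2 stood at 13.0 to 15.2 in CX3CL1-ct 1 to 3. With the striatal level as a covariate, the differences between CAMK and WT became 0.35 for Gad2, 0.27 for Slc32a1 and 0.02 for Dlx6, and none of the 9 genes was called in any comparison. Dlx1 was highest in CX3CL1-ct 1 to 3, where the mean striatal level was 2.42 to 2.43. The genes of the list differed there. Drd1 stood at 4.47 to 5.20 FPKM in CX3CL1-ct 1 to 3. Meis2, the most abundant of the list, stood at 68.2 to 72.3 in them and at 62.8 to 90.4 in WT 2, WT 3 and CX3CL1-ct 5. In the remaining libraries Meis2 stood at 20.9 to 38.8. The part of striatal tissue in these differences was not tested beyond this.

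**Figure D5:**
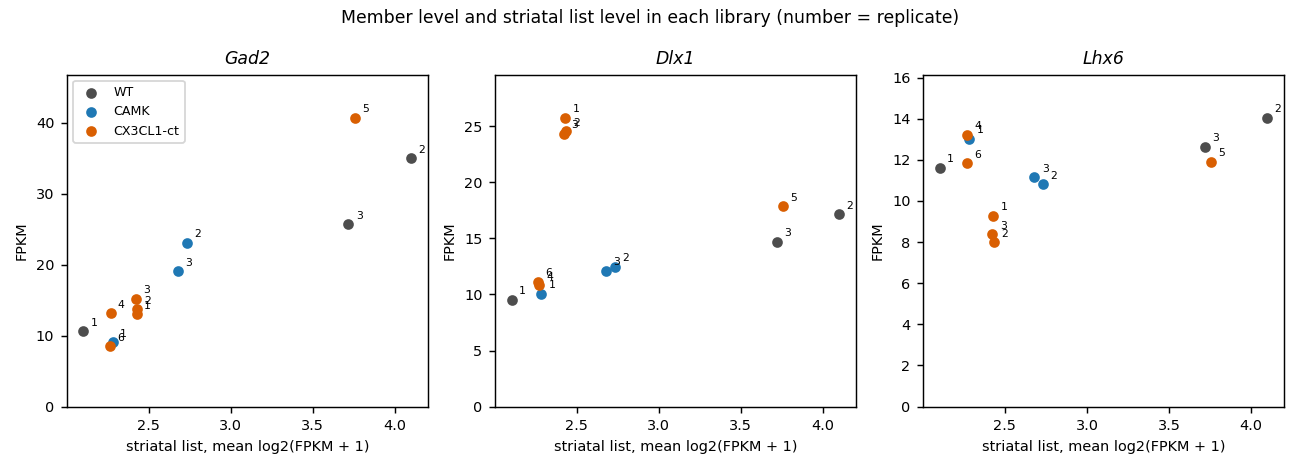
FPKM (y axis, from 0) of Gad2, Dlx1 and Lhx6 against the mean log2(FPKM + 1) of the 21 striatal genes (x axis) in each library (points, coloured by group and numbered by replicate). Gad2 is highest in the 3 libraries with the highest striatal level, and Dlx1 is highest in CX3CL1-ct 1 to 3, whose striatal level is 2.42 to 2.43.

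The wider interneuron programme was followed through lists of marker genes. Of 21 markers of interneurons from the medial eminence, 20 were kept and 0 were called in any comparison. Sst, the peptide somatostatin, stood at 183, 152 and 150 FPKM in WT, at 147, 124 and 134 in CAMK, and from 86.5 through a median of 102 to 158 in CX3CL1-ct. It was lowest in CX3CL1-ct 1 to 3 and 6, and the log2 difference between CX3CL1-ct and WT was -0.50 (limma, SE 0.17, adjusted p = 0.274). The ratio of Sst to Lhx6 ran from 8.51 in CX3CL1-ct 6 to 15.7 in WT 1. Npy, neuropeptide Y, ranged from 49.1 to 78.8, both in WT. Pvalb, which marks fast-spiking cells later in life, was listed at 0 in WT 3, did not exceed 2.09 elsewhere and was not kept. Of the 20 kept genes, 2 were higher in CX3CL1-ct than in CAMK, with a median log2 difference of -0.12 beside 0.04 for all genes. The list's mean log2 level was 2.98 to 3.04 in CX3CL1-ct 1 to 3, 3.15 to 3.24 in CX3CL1-ct 4 to 6 and 3.23 to 3.31 in CAMK. The count thus rests largely on CX3CL1-ct 1 to 3.

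Of 20 markers of interneurons from the caudal eminence, 19 were kept and 0 were called in any comparison. The log2 difference between CX3CL1-ct and CAMK was positive for 11, with a median of 0.08. Reln, the glycoprotein of layer-forming neurons and of some interneurons, stood at 64.2 to 64.8 FPKM in CX3CL1-ct 1 to 3 and at 38.2 to 57.5 in the others. Calb2, calretinin, stood at 41.6 to 45.2 in those 3 libraries and at 44.5 in CX3CL1-ct 5, and at 15.7 to 37.1 in the rest. Vip, a peptide of interneurons that inhibit other interneurons, was low throughout, at 1.03 to 2.43. Cck, which hippocampal pyramidal cells also make, was lowest in CX3CL1-ct 5, at 26.4, against 81.2 to 197 in the others.

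Of 20 genes of interneuron migration or shared by both lineages, 17 were kept and 0 were called. Between CX3CL1-ct and CAMK 13 were positive, with a median of 0.09. Nrp2, a semaphorin receptor that steers migrating interneurons, stood at 42.8, 37.0 and 40.7 FPKM in WT and at 28.3, 29.1 and 29.6 in CAMK. Its difference between CAMK and WT was -0.45 (limma, SE 0.14, adjusted p = 0.223). In CX3CL1-ct it ran from 27.4 to 32.3 in 5 libraries and stood at 46.2 in replicate 4. Transcription factors Sp8, Pax6, Tshz1 and Etv1 were chosen after their values were seen because they were highest in CX3CL1-ct 1 to 3, and so describe these libraries without support for a theme. Sp8, a relative of Sp9, stood at 11.5 to 11.8 in these 3 and at 1.181 to 6.64 in the others. Pax6 stood at 8.12 to 9.10 against 3.40 to 5.74, Tshz1 at 20.8 to 22.3 against 5.67 to 13.2, and Etv1 at 10.99 to 11.6 against 6.05 to 8.93. Other factors did not share the pattern: Nr2f1, a factor of the caudal eminence, stood at 26.3 to 27.9 in these 3 and highest in CAMK 1, at 60.1, and Id2 was highest in CX3CL1-ct 6, at 118.

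Among 14 genes of GABA uptake, breakdown and release, 13 were kept and 1 was called. Slc6a13, a GABA transporter found mainly in the meninges, stood at 3.58, 1.31 and 2.11 FPKM in WT, at 6.09, 4.33 and 6.14 in CAMK and at 6.13 to 13.6 in CX3CL1-ct. All CX3CL1-ct libraries were above all WT libraries. It rose by 1.69 (log2) in CX3CL1-ct over WT (limma, SE 0.26, adjusted p = 0.0156) and differed by 0.68 for CX3CL1-ct against CAMK (adjusted p = 0.725). Abat, the enzyme that breaks GABA down and a gene of the list singled out after its values were seen, was highest in WT 2, WT 3 and CX3CL1-ct 5, at 55.6, 44.0 and 59.1, against 20.2 to 35.0 elsewhere.

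The other cell types that a hippocampal dissection could hold gave few calls as well. Of the 21 striatal genes, 1 was called: Bcl11b, a factor of striatal and deep-layer projection neurons that hippocampal neurons also make. It fell by 0.79 (log2) in CAMK against WT (limma, adjusted p = 0.0397), from 37.8, 58.1 and 50.7 to 31.7, 24.8 and 26.2 FPKM. The higher WT values were those of WT 2 and WT 3, which were high in striatal genes, and their part in this call was not tested. Of the 14 glutamatergic, 12 thalamic and 10 general neuronal genes, 0 were called. The median difference between CAMK and WT was -0.68 for the striatal list, 0.19 for the glutamatergic and 0.54 for the thalamic, beside 0.00 for all genes. Tcf7l2, a factor of the thalamic list singled out after its values were seen, stood at 23.0 and 15.8 in CAMK 2 and 3, at 12.2 in CX3CL1-ct 5 and at 1.04 to 4.48 in the other 9. The part of other regions in the differences between groups was not tested.

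The order of levels per length was similar in the 3 groups. In WT the mean fell from Gad1 (39.7 FPKM) through Gad2 (23.8), Dlx1 (13.8), Slc32a1 (13.7) and Lhx6 (12.8) to Dlx5 (4.92), Dlx6 (4.74), Sp9 (4.48) and Dlx2 (3.62). Lhx6 and Dlx5 were the 1 pair of neighbours in this order whose ranges did not overlap. In CAMK the ranges were apart between Gad1 and Gad2 and between Slc32a1 (10.9) and Dlx2 (3.40). In CX3CL1-ct all neighbours overlapped, and Dlx1 (19.1) stood second and Dlx2 (5.90) sixth.

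Likeness between genes was measured as the root mean square difference of log2(FPKM + 1) over the 12 libraries, each gene centred on its mean. Among the 36 pairs of members the closest were Dlx1 and Dlx2 (0.154), Dlx1 and Sp9 (0.205) and Dlx5 and Sp9 (0.208). Outside the members, the gene most like Gad1 was Dock10 (0.106), followed by Pik3r3, Fam196b, Abhd3 and Fstl5. For Dlx5 it was Rnd3 (0.149), followed by 5430420F09Rik, Pde1c, Dock10 and Sox2ot. For Lhx6 it was Kcnab1 (0.0990), followed by Iqsec1, BC024139, Mast3 and Pcdhb15. For Dlx1, added after its values were seen, it was Pax6 (0.154), followed by Cdca7, Tmem132d, Syt10 and Tshz1. The members' own SD over the libraries was 0.43 for Gad1, 0.42 for Dlx5, 0.23 for Lhx6 and 0.47 for Dlx1, which is the scale for these distances.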

How the data were processed

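RNA of 12 hippocampal libraries was depleted of ribosomal RNA and sequenced from both ends for 100 cycles after stranded library preparation, per the labels' protocols. The deposited table holds FPKM made by the authors. TopHat, Bowtie, Cufflinks, Cuffdiff and build mm10 are named, per the submitters' processing notes. Versions, scaling and the use of strand in counting are not given in the sources used here. Groups come from the sample titles.

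The deposited values were not rescaled but analysed as log2(FPKM + 1), a scale that understates changes of low genes. limma 3.58.1 (R 4.3.3) fitted a mean for each of the 3 groups over 12 libraries (eBayes, trend) to 16503 genes with at least 1 FPKM in at least 3 libraries. Two-sided p-values were adjusted by the Benjamini-Hochberg method over these genes, with a threshold of 0.05. Other steps used numpy 2.4.6 and pandas 2.3.3 under Python 3.11.15. With no counts in the table, depth had to be estimated from the value of 1 fragment in genes of 500 to 5000 nt, assuming fragments of 180 nt. The intervals and counting errors derived from it cover counting only. Where a symbol was repeated the row with the highest mean FPKM was used.

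The members and the gene lists were chosen with earlier results of these data known. Genes named beside the members were the 6 most abundant of each interneuron list or the 4 most abundant of every other list, genes that were called, the subtype and striatal markers, and the 5 genes most like Gad1, Dlx5 and Lhx6 with a mean of at least 2 FPKM. Not every gene under this rule is reported here. Genes added after their values were seen are marked as such.

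Replicate numbers 1 to 3 in the titles occur in all groups. Deviations of same-numbered CAMK and WT libraries from their group means correlated over genes by 0.236, 0.163 and 0.100. This meets the minimum of 0.1, so a fit blocked on that number stands beside the comparison where a count changed. Differently numbered libraries were not correlated, so these values do not show that the numbers mark true pairs. The steps were tested on simulated data. Alternatives covered the pseudocount, the filter, median scaling, the block, the groups fitted, a robust prior, the striatal level as a covariate and libraries left out.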

Additional observations from a re-analysis of the deposited data

Results flagged for a closer look

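In CX3CL1-ct, the group with 6 libraries, 66 genes were checked for a library far from the other 5, and 21 were marked. Chance marks about 1 in 20 groups, but the 66 include 13 genes chosen after their values were seen, with 6 of the 21 marks (Lhx8, Nkx2-1, Tcf7l2, Abat, Isl1 and Foxp2), so the count cannot be set against that rate. Of the members, Gad2 stood at 40.7 FPKM in CX3CL1-ct 5, where the next library held 15.2, and Slc32a1 stood at 21.6, where the next held 9.90. The same library was highest for genes of striatal projection neurons: Drd1 at 11.4, Drd2 at 6.36, Adora2a at 6.22, Ppp1r1b at 27.9, Pde10a at 44.7, Foxp2 at 28.5 and Isl1 at 10.6. It was also highest for Tac1 (40.3), which encodes substance P, for Abat (59.1), which breaks down GABA, and for Lhx8 (6.49) and Nkx2-1 (2.01), factors of the medial eminence. Slc17a6 (57.5), a vesicular glutamate transporter of the thalamus, and Tcf7l2 (12.2) were highest there as well. Excitatory genes were lowest in it, with Slc17a7 at 17.4 and Neurod6 at 43.8, as were Zeb2 (47.0), a factor of neuronal development, and Tubb3 (606), a neuronal tubulin. CX3CL1-ct 4 stood apart for receptors of axon and cell guidance: Robo2 was lowest there, at 30.2, where the next held 45.5, and Nrp2 was highest, at 46.2, where the next held 32.3.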

How the results depend on the processing

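The number of the 9 genes called was 0 under every alternative except the replicate block. With the block, which for CX3CL1-ct rests on replicates 1 to 3 because replicates 4 to 6 have no partner, 2 members were called against CAMK (Dlx1 1.05, limma adjusted p = 0.0329, and Dlx2 0.98, adjusted p = 0.0440) and 3 against WT (Dlx1 0.84, adjusted p = 0.0337, Dlx2 0.91, adjusted p = 0.0288, and Lhx6 -0.53, adjusted p = 0.0430). Over all genes it called 171, 540 and 490 in the comparisons of CX3CL1-ct with CAMK, of CX3CL1-ct with WT and of CAMK with WT. Numbers of CX3CL1-ct libraries did not pair them with CAMK (correlations 0.110, -0.130 and -0.0912) or WT (0.114, -0.0622 and 0.0106). Against WT, the block also turned Gad1 to 0.020 and Dlx5 to 0.12.

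No change of direction below reached the threshold, and the cause was not tested. With the striatal level as a covariate, CX3CL1-ct against WT gave 0.38 for Gad1, 0.27 for Gad2, 0.12 for Slc32a1, 0.36 for Dlx5 and 0.16 for Dlx6, and CAMK against WT gave 0.21, 0.35 and 0.27 for the first 3, 0.0038 for Dlx1, 0.037 for Dlx2 and 0.020 for Dlx6. Without WT 2, WT 3 and CX3CL1-ct 5, where the lone WT library is assumed to vary like the other groups, CX3CL1-ct against WT gave 0.23 for Gad1, 0.22 for Gad2, 0.017 for Slc32a1, 0.59 for Dlx5 and 0.30 for Dlx6. CAMK against WT then gave 0.22 for Gad1, 0.55 for Gad2, 0.36 for Slc32a1, 0.25 for both Dlx1 and Dlx2, 0.21 for Dlx5, 0.31 for Dlx6, 0.0025 for Lhx6 and 0.20 for Sp9, and CX3CL1-ct against CAMK gave -0.0078 for Dlx6. In the fits without WT 2, WT 3 and CX3CL1-ct 5, the WT library kept was among the 3 lowest for every member but Lhx6. Averaging or leaving out CX3CL1-ct 1 to 3 was chosen after seeing the data. Averaged, Gad2 was 0.0049 against CAMK and Sp9 -0.12 against WT. Left out, Gad2 was 0.067, Slc32a1 0.023 and Lhx6 0.075 against CAMK, and Dlx1 was -0.049 and Sp9 -0.29 against WT.

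Leaving out 1 library at a time gave, for CX3CL1-ct against WT, -0.26 to 0.13 for Gad1, -0.93 to -0.11 for Gad2, -0.67 to -0.12 for Slc32a1, -0.79 to -0.099 for Dlx6, -0.36 to 0.26 for Dlx5 and -0.28 to 0.33 for Sp9. For CAMK against WT it gave -0.44 to 0.0016 for Gad1, -0.54 to 0.014 for Slc32a1 and -0.22 to 0.063 for Dlx2. For CX3CL1-ct against CAMK it gave -0.040 to 0.35 for Gad1, -0.43 to 0.20 for Gad2 and -0.0078 to 0.30 for Dlx6.

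Counts over all genes for CX3CL1-ct against WT were 144 without the filter, 38 with these 2 groups alone, 120 with the striatal covariate, 12 without the 3 libraries high in striatal genes, 28 with CX3CL1-ct 1 to 3 averaged, 25 with them left out, and 26 (without WT 3) to 158 (without CX3CL1-ct 5) with 1 library left out. For CAMK against WT they were 123 without the filter, 204 with the covariate, 10 without the 3 libraries high in striatal genes, and 21 (without WT 3) to 66 (without WT 1). The estimated depth limits Dlx6 and Dlx5 most. With 3 libraries in each control group, the intervals of most members span more than 1 on the log2 scale, so differences of that size could be missed.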
